A study of Mus musculus with 24 samples.

Results

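The elastic fibre genes followed here are elastin (Eln), the fibrillins Fbn1 and Fbn2, the fibulins Fbln1, Fbln2, Fbln5 and Efemp2 (fibulin 4), the cross-linking enzymes Lox and Loxl1, and the fibre-associated glycoprotein Emilin1. They were picked by name, and a probe of the array belonged to a gene when its RefSeq accession mapped to that gene. Of the 10 genes listed, 9 had a probe, with 11 probes in all among 41174 non-control probes and 18539 named genes. Lox had no probe by this match and was not analysed here. Fbn1 and Fbln1 had 2 probes each, and the brighter one in each tissue was used. Eln, Fbn1, Fbln1, Fbln2, Fbln5, Efemp2, Loxl1 and Emilin1 were well above background on all 24 arrays and entered every test. Fbn2 was well above background on 7 of 24 arrays, at most 1 array in a group, so that it passed the filter in neither tissue and has no tested value.

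Male WT C57BL/6 mice and KO mice, galectin-3 (-/-) through a deletion within Lgals3, were started on the diets at 8 weeks of age. They ate a high-fat diet (HFD, 60% of calories from fat) or chow (12%) for 8 weeks. In each of 3 independent experiments, live CD105+/CD45- endothelial cells were sorted from the pooled aortas and the pooled skeletal muscle of 3 to 4 mice per strain and diet, which gave 8 groups (aorta or muscle, WT or KO, chow or HFD) of 3 arrays each. Levels are given as log2 of the array signal over the 75th percentile of that array, so that 0 is the 75th percentile. Levels of different probes cannot be set against each other.

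Elastic fibres let arteries stretch with each heartbeat and recoil. Secreted tropoelastin is gathered onto a scaffold of fibrillin microfibrils with the help of fibulins, and lysyl oxidases then join the molecules into an insoluble polymer. In the arterial wall most elastin is laid down early in life by smooth muscle cells, with adventitial fibroblasts and endothelial cells as further sources, and the finished fibre is replaced very slowly.

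The 12 endothelial markers (Pecam1, Cdh5 and others) were well above background on every array. Their summed level was 140 to 428 times the 75th percentile in aorta and 426 to 634 times in muscle. Genes of other cells were measured too. The 10 fibroblast markers (Dcn, Lum, Col1a1 and others) summed to 319 to 708 in aorta and to 24.3 to 227 in muscle. The 10 smooth muscle markers summed to 44.1 to 96.6 in aorta and to 54.5 to 119 in muscle. The 7 macrophage and leukocyte markers with a probe reached at most 5.34 in aorta and 9.87 in muscle, and cells carrying CD45, the leukocyte antigen, had been gated out. The gene of CD45, Ptprc, was still well above background on 10 of 12 arrays in each tissue. Skeletal muscle fibre markers summed to 23.8 to 164 in muscle, lymphatic endothelial markers to at most 96.8 in aorta and 28.9 in muscle, and mesothelial markers reached at most 0.483 on any array. The 4 muscle arrays of experiment 1 held the highest muscle fibre sums (118 to 164) and fibroblast sums of 111 to 227. In bulk RNA, more cells of a type and more RNA per cell cannot be told apart.

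The arrays of experiment 1 from HFD mice also stood apart by strain. At 34 probes chosen because they separated the strains in experiments 2 and 3, with WT at 0 and KO at 1, the 4 of them lay between 0.20 and 0.40, whereas the chow arrays of experiment 1 lay at 0.03 and 0.08 for WT and at 1.02 and 0.91 for KO. The tissue, diet and strain comparisons are therefore also given without experiment 1. The Lgals3 probe does not check the strain labels, because the files do not say whether it lies within the deleted segment; its signal on the arrays labelled KO differed from that of their WT partners by 0.14 to 3.04 log2 in muscle (higher in 6 of 6) and by -0.79 to 2.90 log2 in aorta (higher in 5 of 6).

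**Figure D1:**
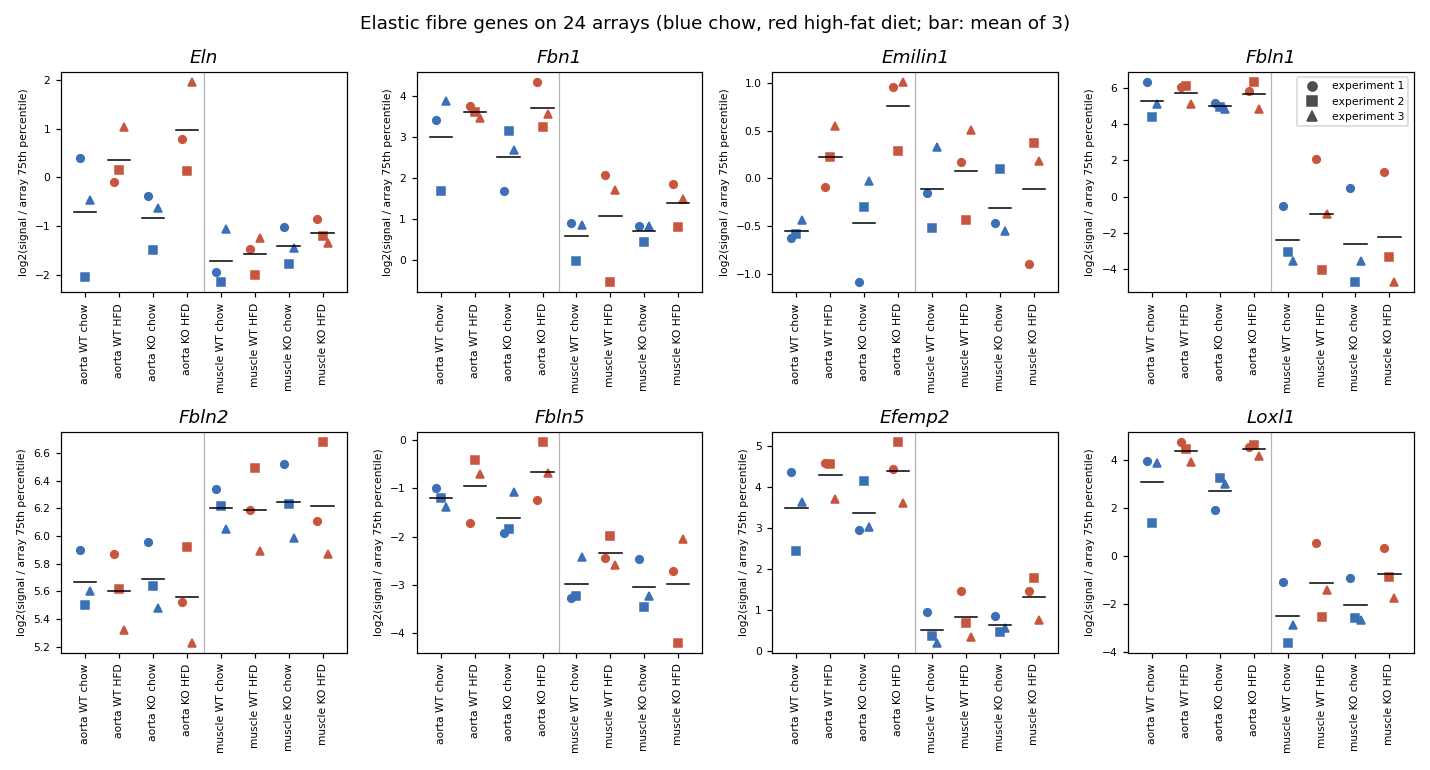
Log2 level of the 8 tested genes on each of the 24 arrays. Blue points are chow, red points HFD, the marker gives the experiment and the black bar is the mean of 3 arrays. Fbln1, Loxl1, Efemp2 and Fbln5 do not overlap between aorta (left of each panel) and muscle (right).

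Sequences upstream of these genes are shown for the 3 genes of this set in the promoter table with the largest difference between tissues that had 1 direction (Fbln1, Efemp2, Fbn1) and for Fbln2, the gene with the opposite direction. Each run holds the 250 bases before the first RefSeq start site listed for the gene (build GRCm38.p6), 5′ to 3′ on the strand of the gene. Capitals mark the letters CAGAC (the Smad box, read by TGF-beta signalling factors) and GGGCGG (the GC box, read by Sp1 and its relatives) on either strand. The windows are chr15:85205699-85205948 on the plus strand for Fbln1, chr19:5473696-5473945 on the plus strand for Efemp2, chr2:125506439-125506688 on the minus strand for Fbn1 and chr6:91212514-91212763 on the plus strand for Fbln2.
Fbln1: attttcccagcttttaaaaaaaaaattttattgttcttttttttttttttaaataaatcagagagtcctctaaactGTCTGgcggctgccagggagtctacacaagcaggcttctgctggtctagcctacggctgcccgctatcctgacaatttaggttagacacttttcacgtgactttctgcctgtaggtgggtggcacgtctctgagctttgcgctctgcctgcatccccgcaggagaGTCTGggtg
Efemp2: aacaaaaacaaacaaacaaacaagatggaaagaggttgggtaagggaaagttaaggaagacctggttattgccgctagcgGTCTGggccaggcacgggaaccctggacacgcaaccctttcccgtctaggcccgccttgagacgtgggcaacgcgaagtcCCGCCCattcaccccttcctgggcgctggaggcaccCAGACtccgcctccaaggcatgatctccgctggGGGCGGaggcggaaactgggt
Fbn1: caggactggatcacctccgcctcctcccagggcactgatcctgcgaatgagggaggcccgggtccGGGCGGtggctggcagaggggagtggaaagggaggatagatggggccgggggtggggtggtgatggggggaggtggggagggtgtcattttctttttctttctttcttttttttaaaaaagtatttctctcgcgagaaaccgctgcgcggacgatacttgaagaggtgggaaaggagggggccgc
Fbln2: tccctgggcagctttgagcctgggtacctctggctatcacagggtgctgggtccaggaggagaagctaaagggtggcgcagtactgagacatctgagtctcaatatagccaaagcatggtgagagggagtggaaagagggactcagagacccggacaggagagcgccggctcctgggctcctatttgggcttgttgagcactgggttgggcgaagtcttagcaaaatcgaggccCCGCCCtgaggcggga
In the windows shown, both Fbln1 and Efemp2 held 2 Smad boxes, while Fbn1 and Fbln2 held none. Of the windows not shown, start site 2 of Fbln1 held 2, and start sites 2 and 3 of Efemp2 held 0 each. The table held 6 of the 10 genes (also Fbln5 and Emilin1), in 10 windows, some of which overlap. A Smad box lay in 5 of the 10 windows (4 of the 6 genes) and a GC box in 7 of the 10 (5 of the 6 genes). Over all 32817 promoter windows of the same length, 42.2% held the Smad box, a share near that of these windows, and 32.7% the GC box. None of the 10 windows held TATAAA (the TATA box, in 12.4% of all windows) or TGANTCA (the AP-1 site, in 6.8%). These letters describe the windows and were not tested for binding.

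The first comparison asked how the elastic fibre genes differ between the CD105+/CD45- cells sorted from aorta and those sorted from skeletal muscle. Of the 8 genes, 7 passed the test. Fbln1, Loxl1, Efemp2, Fbn1, Fbln5 and Eln were higher in aorta, by 175-fold down to 2.65-fold, and Fbln2 was 1.5-fold lower. Emilin1 did not pass the test. The 12 arrays of each tissue did not overlap for 4 of the 8 genes, and for 5.65% of all probes tested. The share of all 27387 probes called was 28.2% (3141 higher and 4574 lower in aorta), against 7 of the 8 genes. The median difference of the 8 genes was 2.00 log2 and that of all probes tested was -0.27 log2, below 0.

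Among the proteins that bind elastin and microfibrils, Fbln1, a fibulin of basement membranes and elastic fibres, had the widest difference. Its level was 4.39 to 6.33 log2 in aorta (median 5.14) and -4.72 to 2.06 in muscle (median -3.17), and no muscle array reached the lowest aortic one. The 12 differences within a pool of mice ran from 3.97 to 10.09, with a mean of 7.45 log2 (SE 0.84, limma adjusted p 3.4e-06). The second Fbln1 probe gave 7.67 (SE 0.79, limma adjusted p 1.33e-06). The muscle arrays of experiment 1 were the highest, at -0.51 to 2.06, against -4.72 to -3.03 in experiment 2 and -4.69 to -0.96 in experiment 3. The mean difference was thus 5.0 ± 1.26 (SD, n = 4 pools) in experiment 1, 9.21 ± 1.21 in experiment 2 and 8.15 ± 1.47 in experiment 3. Without experiment 1 it was 8.68 (limma adjusted p 2.38e-05).

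Efemp2, which brings lysyl oxidase to tropoelastin, lay at 2.43 to 5.10 log2 in aorta (median 3.94) and at 0.20 to 1.78 in muscle (median 0.72). The tissues did not overlap, and the difference was 3.06 log2 or 8.37-fold (SE 0.35, limma adjusted p 3.7e-06). It was even over the experiments, with means of 2.92, 3.24 and 3.04 log2. Fbln5, which tethers elastin to cells and to microfibrils, lay at -1.92 to -0.04 log2 in aorta (median -1.14) and at -4.20 to -1.99 in muscle (median -2.66). Its highest muscle array lay just under its lowest aortic one, and the difference was 1.74 log2 (SE 0.34, limma adjusted p 0.000947). Fbln2, a fibulin of vessel walls that also binds fibrillin, was the only one of the 8 lower in aorta in every pool, by 0.33 to 0.87 log2. Its level was 5.23 to 5.96 log2 in aorta and 5.87 to 6.68 in muscle, so that the ranges overlapped slightly, and the mean difference was -0.59 log2 (SE 0.17, limma adjusted p 0.0154). The median of all probes was itself -0.27, and with the deposited value table, where that median was -0.01, the difference of Fbln2 was -0.32 (limma adjusted p 0.202).

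Of the scaffold and core proteins, Fbn1, the main microfibril protein of the adult, lay at 1.69 to 4.35 log2 in aorta (median 3.44) and at -0.54 to 2.07 in muscle (median 0.86). The aortic arrays WT chow of experiment 2 and KO chow of experiment 1, both at 1.69, fell within the muscle range, and within pools aorta was higher in 12 of 12. The mean difference was 2.27 log2 or 4.81-fold (SE 0.42, limma adjusted p 0.00049), and the second probe gave 2.25. Eln itself lay at -2.05 to 1.96 log2 in aorta (median 0.03) and at -2.15 to -0.86 in muscle (median -1.39). The ranges overlapped, with the aortic chow arrays of experiment 2 (-2.05 in WT and -1.49 in KO) at muscle level. Aorta was still higher in 12 of 12 pools, by 0.10 to 3.30, with a mean of 1.41 log2 (SE 0.35, limma adjusted p 0.0056). The tissue difference of Eln averaged 1.01 ± 1.17 in WT chow, 0.58 ± 0.28 in KO chow, 1.93 ± 0.50 in WT HFD and 2.09 ± 1.05 in KO HFD (SD, n = 3 each). Emilin1, which sits between elastin and the microfibrils, lay at -1.09 to 1.01 log2 in aorta and at -0.90 to 0.51 in muscle, with aorta higher in 5 of 12 pools and a mean difference of 0.10 log2 (SE 0.26, limma adjusted p 0.789).

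Of the cross-linking enzymes, Loxl1, the lysyl oxidase needed to maintain elastin in adult tissue, lay at 1.40 to 4.76 log2 in aorta (median 3.95) and at -3.62 to 0.53 in muscle (median -1.59). The tissues did not overlap. The difference was 5.29 log2 or 39.1-fold (SE 0.52, limma adjusted p 7.97e-07), with 4.08 ± 0.92 in experiment 1, 5.86 ± 0.84 in experiment 2 and 5.93 ± 0.62 in experiment 3 (SD, n = 4 pools each). The muscle arrays of experiment 1 were higher on average (-1.07 to 0.53, against -3.62 to -0.86 in experiment 2 and -2.88 to -1.42 in experiment 3). Each slide held 1 tissue of 1 experiment, so that slide was entered as a random block and slide and tissue cannot be fully told apart. The fit used 1 slide correlation (0.28) for all probes. Where slides differ more than that, SE and p may be too small. The Fbln1 means of the muscle slides, for example, were 0.85, -3.77 and -3.18 in experiments 1, 2 and 3. The calls of the 6 genes higher in aorta held without experiment 1, without experiment 2 and without experiment 3. The call of Fbln2 was lost without experiment 1 (-0.64, limma adjusted p 0.0858) and without experiment 2 (-0.51, limma adjusted p 0.163).

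**Figure D2:**
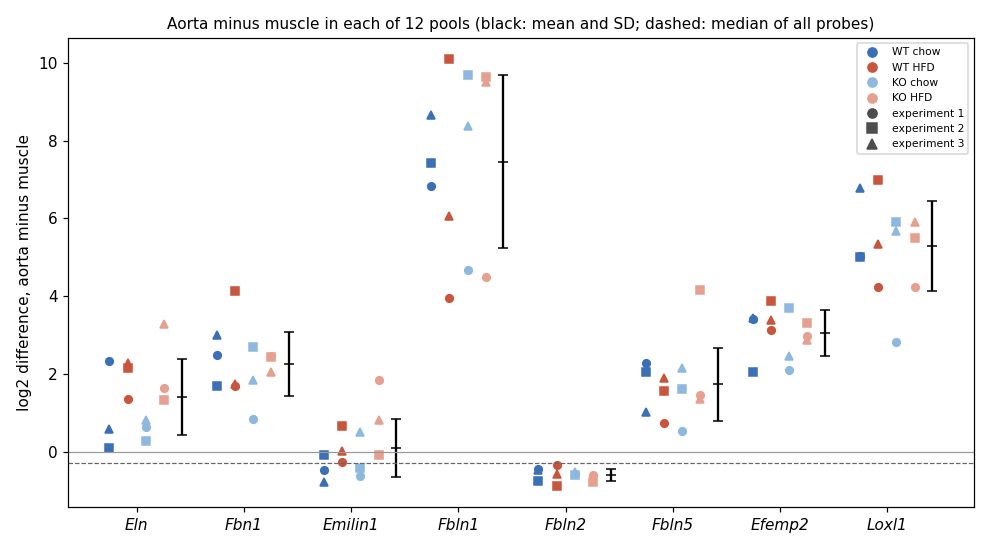
Log2 difference between aorta and muscle in each of the 12 pools of mice. Colours give strain and diet, markers the experiment, black bars the mean and SD over pools and the dashed line the median of all probes tested (-0.27). The means of Fbln1 and Loxl1 are lowest in experiment 1, and Fbln2 lies below 0 in every pool.

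Several marker lists moved with this comparison. All 10 fibroblast markers were called higher in aorta, with a median difference of 4.48 log2 (1.79 to 6.73), and the lowest aortic sum (319) was above the highest muscle sum (227). Of the lymphatic endothelial markers 4 of 7 were called higher (median 3.05 log2). Prox1 (0.01), Pdpn (0.42) and Flt4 (-1.75, limma adjusted p 0.0627) were not called. Of the adipocyte markers 5 of 7 were called higher (median 1.99). The 2 mesothelial markers tested went opposite ways, Wt1 at 4.21 log2 (limma adjusted p 7.01e-05) and Msln at -1.92 (limma adjusted p 0.215). All 8 skeletal muscle fibre markers were called lower in aorta (median -6.46 log2). The smooth muscle markers had a median difference of -0.45 log2, with none of the 10 called higher in aorta and 5 called lower. Endothelial markers were lower in aorta, 10 of 12 called, with a median of -1.06 log2. In muscle, 9 of the 10 fibroblast markers were well above background on 11 or 12 of 12 arrays, and Tcf21, a fibroblast transcription factor, was on 1 of 12. The part of other cells in the tissue difference of the elastic fibre genes was not tested.

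The partners of the elastic fibre were higher in aorta as well. Of the 18 microfibril-associated and assembly genes tested, 12 were called higher and 1 lower, with a median of 3.02 log2. Those with the smallest p were Ltbp3, a carrier of latent TGF-beta (3.55 log2, SE 0.30, limma adjusted p 1.64e-07), Mfap4, a microfibril-associated glycoprotein (6.50, SE 0.57), Adamtsl2, which binds fibrillin (4.87, SE 0.43), and Emilin2 (4.29, SE 0.47). This list shares Mfap5 with the fibroblast markers and Mmrn1 with the lymphatic endothelial markers. The gene called lower was Mmrn2, an endothelial member of the Emilin family (-0.86 log2, SE 0.20, limma adjusted p 0.0032). Of the 7 cross-linking partners tested, 5 were called higher and none lower, namely Bmp1, which processes lysyl oxidase (2.26 log2), fibronectin Fn1 (2.58), Postn (2.41), Loxl3 (3.76) and, named after its value was seen, Loxl2 (1.29). At an unadjusted p under 0.05 the count lower was also 0.

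Of the 6 elastin-degrading proteases tested, 3 were called higher in aorta, cathepsin K (Ctsk, 4.85 log2, SE 0.61), Mmp2 (3.62, SE 0.45) and Mmp14 (1.81, SE 0.33). The other 3 did not pass the test. The TGF-beta pathway, which fibrillin microfibrils help to restrain, was split, with 4 of 11 called higher and 3 lower. The ligands Tgfb3 (2.63 log2) and Tgfb2 (1.17), the receptor Tgfbr2 (1.05) and the signal carrier Smad3 (2.82) were higher, whereas Tgfb1 (-1.44) and the endothelial receptors Eng (-1.08) and Acvrl1 (-1.05) were lower; these 3 were named after their values were seen. Eng encodes CD105, the protein used to sort the cells.

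The second comparison asked what the high-fat diet did to these genes. Over both strains, 1 of the 8 genes was called in muscle, Loxl1, which was 2.54-fold higher on HFD, and none in aorta. In the aorta 7 of the 8 lay above 0, from 0.57 to 1.51 log2, without passing the test. The share of probes called was 0.288% in muscle (74 of 25682) and 0.0309% in aorta (8 of 25865). At an unadjusted p under 0.05, 3 of the 8 genes passed in muscle and 4 in aorta, beside 16.4% and 15.1% of all probes. The median of the 8 genes was 0.91 log2 in aorta and 0.43 in muscle, beside 0.01 and -0.01 over all probes tested.

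Loxl1 in muscle was at -1.07, -3.62 and -2.88 log2 in WT on chow and at 0.53, -2.53 and -1.42 on HFD in experiments 1, 2 and 3. In KO it was at -0.92, -2.61 and -2.67 on chow and at 0.33, -0.86 and -1.76 on HFD. The levels of chow and HFD overlapped, with experiments further apart than diets, and HFD was higher within 6 of 6 pairs. The WT ratios were 1.60, 1.09 and 1.46 log2, and the KO ratios 1.25, 1.75 and 0.91. Averaged over the strains, the difference was 1.34 log2 (SE 0.17, limma adjusted p 0.0485), close to the threshold. Without experiment 1 it was 1.30 (SE 0.26, limma adjusted p 0.311), without experiment 2 it was 1.31 (limma adjusted p 0.276), and without experiment 3 it was 1.42 (limma adjusted p 0.212), so that the size stayed and the call was lost each time. The call was also lost with the slide as the block (limma adjusted p 0.0566) and with no block (limma adjusted p 0.428).

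In the same 6 muscle pairs the sum of the fibroblast markers was higher on HFD in 6 of 6, by 1.06 to 5.72 times. In experiments 1, 2 and 3, chow sums of 111, 29.2 and 32.6 stood beside HFD sums of 223, 36.5 and 76.6 for WT mice, and 141, 24.3 and 42.7 beside 227, 139 and 45.4 for KO mice. None of the 9 fibroblast markers tested in muscle was called by itself, and 7 had an unadjusted limma p under 0.05, all higher on HFD. The sum of the 6 pericyte markers was lower on HFD in 6 of 6 muscle pairs, at 0.481 to 0.872 of chow. The macrophage and leukocyte sum was higher on HFD in 5 of 6 muscle pairs, at 0.721 to 3.93 times chow, and Ptprc, which encodes CD45, averaged 2.97 log2 over both strains (SE 0.55, limma adjusted p 0.103). The part of these cells in the Loxl1 difference was not tested.

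In aorta, Loxl1 was at 3.97, 1.40 and 3.90 log2 in WT on chow and at 4.76, 4.47 and 3.93 on HFD, and at 1.91, 3.28 and 3.01 in KO on chow and 4.56, 4.65 and 4.16 on HFD. The KO arrays of chow and HFD did not overlap, while those of WT did, because only the chow array of experiment 2 was low. The mean diet difference over both strains was 1.51 log2 (SE 0.43, limma adjusted p 0.228). Eln was at 0.39, -2.05 and -0.46 in WT on chow and at -0.09, 0.15 and 1.03 on HFD, and at -0.37, -1.49 and -0.63 in KO on chow and 0.79, 0.14 and 1.96 on HFD. All KO HFD arrays were above all KO chow arrays, and the WT pair of experiment 1 went the other way (-0.49). The mean diet difference of Eln was 1.43 log2 (SE 0.39, limma adjusted p 0.22), and 1.97 without experiment 1 (SE 0.32, limma adjusted p 0.267).

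Emilin1 had the smallest p of the 8 genes in aorta. It was at -0.63, -0.58 and -0.44 log2 in WT on chow and at -0.09, 0.22 and 0.55 on HFD, and at -1.09, -0.30 and -0.03 in KO on chow and 0.96, 0.29 and 1.01 on HFD. In each strain all HFD arrays were above all chow arrays. The share of all probes with such a separation of diets, also seen for Loxl1 and Eln in KO, was not computed. The mean diet difference of Emilin1 was 1.00 log2 (SE 0.24, limma adjusted p 0.192). Efemp2 was higher on HFD in 6 of 6 aortic pairs, by 0.09 to 2.14 (mean 0.91, SE 0.32, limma adjusted p 0.281), and in 6 of 6 muscle pairs, by 0.14 to 1.31 (mean 0.51, SE 0.19, limma adjusted p 0.255). Fbn1 averaged 0.92 (SE 0.43) in aorta and 0.59 (SE 0.25) in muscle and was higher in 5 of 6 pairs of each, the exceptions being the WT pairs of experiment 3 in aorta (-0.42) and of experiment 2 in muscle (-0.53). Fbln1 averaged 0.57 in aorta (SE 0.33), and 0.09 without experiment 2, which held its pairs of 1.68 and 1.36. In muscle Fbln1 averaged 0.88 (SE 0.56), with pairs from -1.16 to 2.59, and 0.46 without experiment 1. Fbln5 averaged 0.61 in aorta (SE 0.30; 0.92 without experiment 1 and 0.26 without experiment 2) and 0.35 in muscle (SE 0.31). Fbln2 was the steadiest, at -0.10 (SE 0.19) in aorta and -0.02 (SE 0.17) in muscle, and no pair moved by more than 0.45 log2. Without experiment 1, the median of the 8 genes was 0.89 log2 in aorta and 0.36 in muscle, and none was called.

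**Figure D3:**
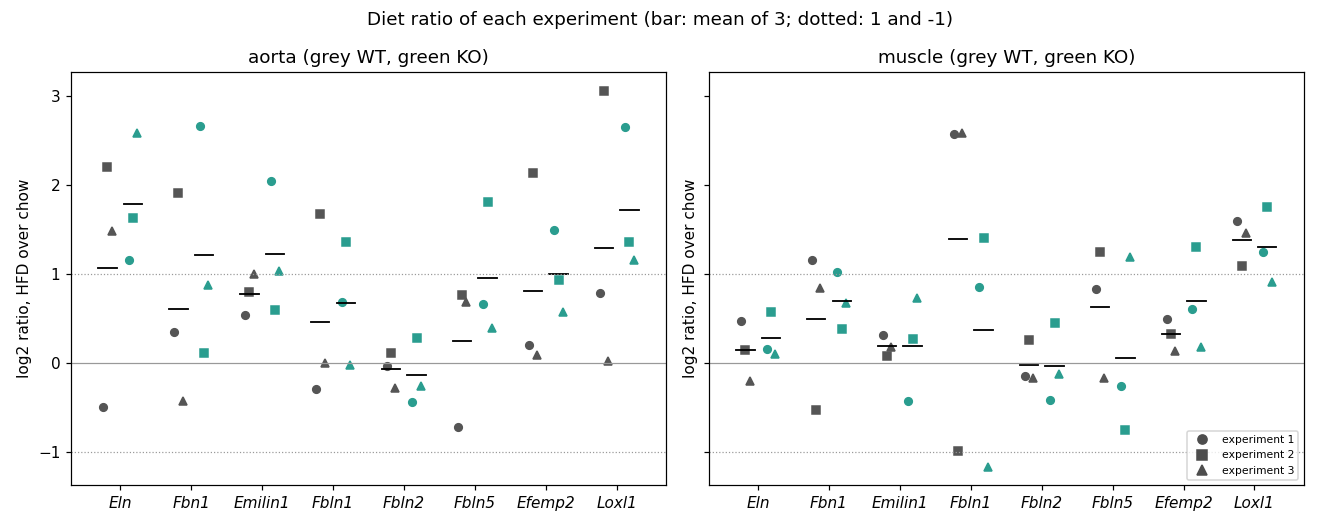
Log2 ratio of HFD to chow of the 8 genes in each experiment, in aorta (left) and muscle (right). Grey points are WT and green points KO, markers give the experiment, bars the mean of 3 and dotted lines 1 and -1. All 6 muscle ratios of Loxl1 lie between 0.91 and 1.75, and all ratios of Fbln2 lie between -0.44 and 0.45.

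Within the strains, none of the 8 genes was called by limma in aorta WT, aorta KO, muscle WT or muscle KO, and the share of all probes called was 0%, 0%, 0% and 0.00389% in that order. At an unadjusted p under 0.05 the counts among the 8 genes were 0, 3, 1 and 2, beside 5.77%, 11.3%, 12.1% and 8.49% of all probes, so that the count in muscle WT lay at the share of all probes. The 3 in aorta KO were Emilin1 (1.23 log2), Eln (1.79) and Loxl1 (1.72), and the 1 in muscle WT was Loxl1 (1.39). Those in muscle KO were Loxl1 (1.30) and Efemp2 (0.70). By the criterion of the study's tables, a log2 ratio past 1 in all 3 experiments, 2 genes were higher on HFD in aorta KO (Eln and Loxl1), 1 in muscle WT (Loxl1), and none in aorta WT or muscle KO. Over all probes the share higher on HFD by that criterion was 1.81% in aorta KO, 0.872% in muscle WT, 0.735% in aorta WT and 0.459% in muscle KO. In aorta KO, the lowest of the 3 ratios was 1.16 for both Eln and Loxl1. By experiments 2 and 3 alone, Eln was past 1 in aorta WT too, since only its WT pair of experiment 1 (-0.49) fell short. The genes past 1 in the other strata stayed the same without experiment 1. The share of all probes without experiment 1 was not computed for this criterion. None of the 8 genes was lower past 1 in any stratum.

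The marker lists also moved with diet in aorta. The adipocyte sum was lower on HFD in 6 of 6 pairs, at 0.0401 to 0.204 times chow, and reached at most 32.0 on HFD. The fibroblast sum was higher in 6 of 6 pairs, by 1.01 to 1.71 times, the pericyte sum in 6 of 6 by 1.01 to 2.07 times, and the endothelial sum was lower in 5 of 6. The smooth muscle sum was higher in 5 of 6 pairs. The macrophage and leukocyte sum was lower in 6 of 6, at 0.582 to 0.99 times chow, while Ptprc averaged 1.22 log2 (SE 0.21, limma adjusted p 0.119). The aortic pairs of experiment 2, which had the largest Loxl1 and Eln ratios in WT (3.06 and 2.20 log2), also had smooth muscle sums of 58.5 on chow against 95.9 on HFD in WT and of 50.2 against 96.6 in KO. In KO the largest ratios lay in other experiments, for Loxl1 in experiment 1 (2.65 log2) and for Eln in experiment 3 (2.58 log2). Other lists also spread widely over the aortic arrays of experiment 2, with fibroblast sums of 319 to 708 and pericyte sums of 47.2 to 98.1. Lymphatic endothelial sums spread less (64.0 to 84.1). Over both strains, the smooth muscle markers had a median diet difference of 0.19 log2 in aorta. The part of these cells in the aortic values was not tested.

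**Figure D4:**
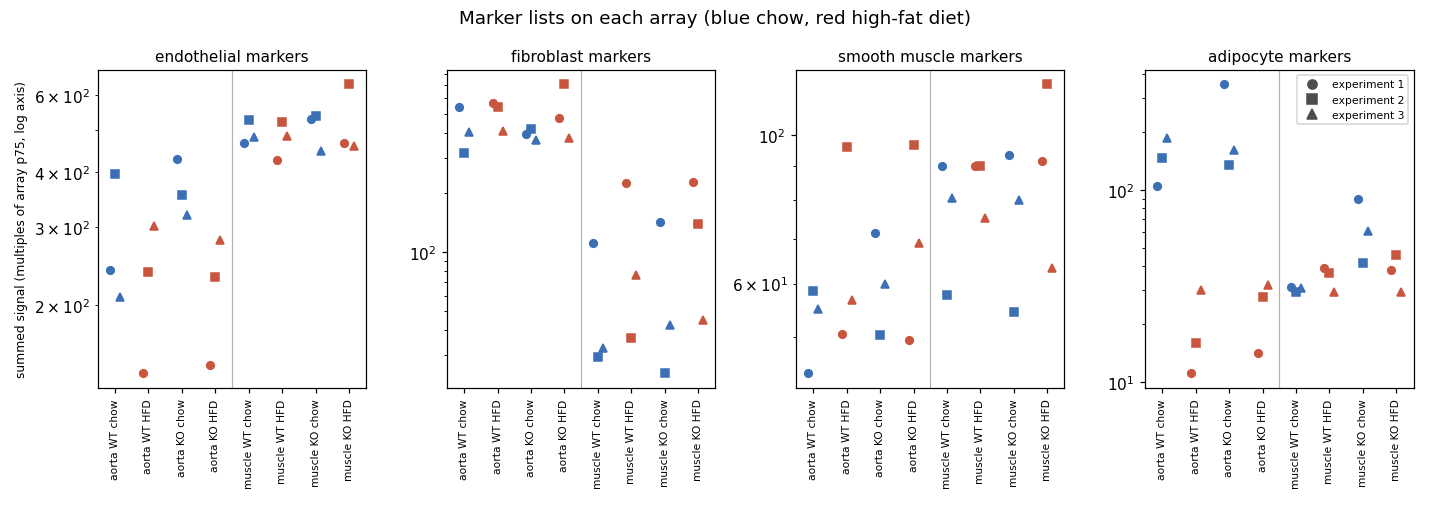
Summed signal of 4 marker lists on each array, in multiples of the 75th percentile of the array, on a log axis. Blue points are chow and red points HFD, and markers give the experiment. Fibroblast sums separate the tissues, and adipocyte sums in aorta separate the diets (HFD at 0.0401 to 0.204 times chow).

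None of the partner genes was called by diet over both strains. In the microfibril and assembly list, 9 of 18 genes had an unadjusted limma p under 0.05 in aorta and 7 of 18 in muscle, all higher on HFD, beside 15.1% and 16.4% of all probes in either direction. The smallest p in aorta were those of Adamtsl2 (2.11 log2, SE 0.43, limma adjusted p 0.147) and Ltbp2 (1.54, SE 0.34, limma adjusted p 0.173), and in muscle those of Mfap4 (2.38, SE 0.37, limma adjusted p 0.0827) and Emilin2 (1.2, SE 0.19, limma adjusted p 0.0874). Among the cross-linking partners the smallest p were those of Bmp1 (0.77) and Loxl2 (0.47) in aorta and of Loxl3 (-1.81) and Postn (0.80) in muscle. The proteases Mmp2 and Mmp14 averaged 1.14 and 0.76 log2 in aorta and 1.04 and -0.66 in muscle. In the TGF-beta pathway the smallest p were those of Tgfb3 (1.01) and Smad3 (0.48) in aorta and of Tgfb2 (-0.29) and Smad2 (-0.22) in muscle.

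The third comparison asked whether the diet response of these genes differed between aorta and muscle. None of the 8 genes was called, and the share of all probes called was 0% (9.24% had an unadjusted p under 0.05). Eln differed most, with a response 1.22 log2 larger in aorta (SE 0.44, unadjusted limma p 0.0195, adjusted 0.43), followed by Emilin1 (0.81 log2, SE 0.30, unadjusted limma p 0.0206, adjusted 0.432). For Eln the diet ratios were -0.49 to 2.58 in aorta and -0.20 to 0.58 in muscle. Without experiment 1 the difference of Eln was 1.82 log2 (SE 0.38, limma adjusted p 0.385). For Loxl1 the responses in the tissues lay 0.17 log2 apart (SE 0.49).

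The fourth comparison asked whether KO and WT differed, in level or in response to diet. None of the 8 genes was called in level over both diets, in aorta or in muscle, where 0.0116% and 0% of probes were called. Differences of KO from WT ran from -0.19 (Fbn1) to 0.30 (Emilin1) log2 in aorta and from -0.73 (Fbln1, SE 1.34) to 0.42 (Loxl1, SE 0.63) in muscle, and none of the 8 had an unadjusted p under 0.05. Without experiment 1 they ran from 0.00 to 0.38 in aorta, where the median of the 8 genes turned from -0.04 to 0.18, and from -1.18 to 0.64 in muscle, with none called. With all experiments, the second Fbn1 probe gave 0.12 in aorta against -0.19 for the brighter one, and -0.15 in muscle against 0.22. The diet response did not differ past the threshold either, with 0% of probes called in each tissue, and none of the 8 genes had an unadjusted p under 0.05. The diet response of Eln in aorta was 1.07 ± 1.39 log2 in WT and 1.79 ± 0.72 in KO (SD, n = 3 pairs each), a difference of 0.72 with a 2-sided exact permutation p of 0.5, where 0.1 is the smallest p that 3 against 3 allow. Without experiment 1 that difference was 0.26 (SE 0.63, limma adjusted p 1). For Loxl1 in muscle the responses were 1.39 ± 0.26 (WT) against 1.30 ± 0.42 (KO), with a 2-sided exact permutation p of 0.8 (n = 3 each). Over the 8 genes and both tissues the exact permutation p lay between 0.4 and 1. In aorta the response was larger in KO for 7 of the 8 genes (median 0.44 log2), but without experiment 1 for 3 of the 8 (median -0.13), with Loxl1 turning from 0.43 to -0.29. In muscle it was larger in KO for 3 of the 8, and without experiment 1 for 6 of the 8 (median 0.24). For Fbn1 in muscle the response of KO minus that of WT was 0.20 by the brighter probe and -0.50 by the second.

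Genes whose arrays rose and fell with Eln or Fbn1 around the group means were listed, as a description over 12 arrays of a tissue that share slides. With Eln in aorta these were Bag4 (r 0.96), Pltp (0.95), Col6a2 (0.94), Zfp560, Mapre3, Zfp26, Naa80 and Zfp358. With Eln in muscle they were Cfhr2 (0.96), Mmrn1 (0.93), Gm4788, Pcdh7, Olfr971, Cyp1b1 and Foxc2. With Fbn1 in aorta they were Olfml2b (0.97), Nfix (0.97), Aldh18a1 (0.97), the fibrillar collagen Col5a2 (0.96), Sh3d19, Clip4, Supt4b and Lrp1, and with Fbn1 in muscle Rtn4rl1 (0.96), Adamts15 (0.94), Plek, Arnt, Postn (0.93), Tmod2 and Vstm4. Among the elastic fibre genes themselves, Loxl1 was the nearest to Fbn1, with r 0.89 in aorta and 0.68 in muscle, and Fbn1 was the nearest to Eln, with r 0.31 in aorta and 0.62 in muscle. Fbln2 had r between -0.54 and -0.06 with both genes in both tissues.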

How the data were processed

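RNA of the sorted CD105+/CD45- cells was read on 24 single-colour Agilent arrays, on 6 slides of 4 scanned in 2 sessions. Session 1 held the arrays of experiment 1 and session 2 those of experiments 2 and 3, so that experiment 1 and its scan session cannot be told apart. Per the file headers, Feature Extraction 10.5.1.1 (the labels give 9.1) made background-subtracted processed intensities, which the authors deposited unscaled, with marks for outliers and for spots well above background. The authors also deposited log2 values, the same intensities with a shift per array. Intensities were scaled to the 75th percentile of each array (2390.4 to 5937.9) and log2 transformed. Outlier spots were left out. A probe was tested where all 3 arrays of some group in the tissue had it well above background (59.5% to 75.7% of spots per array did), with limma 3.58.1 in R 4.3.3 and Benjamini-Hochberg adjustment at 0.05. Diet was paired within strain and experiment, which the labels number as independent experiments; deviations of paired arrays correlated at 0.01 to 0.46. Strains were compared over group means, and tissues with slide as a random block (1 correlation of 0.28 for all probes). With 3 arrays a group, array number limits precision. Genes, lists and tests were chosen with earlier results of these data known. All genes of the set were named, with up to 4 called genes of each companion list by smallest p, otherwise the first 2. Fits were tested on simulated arrays with independent errors, which held no slide or pair effects and so cannot check the blocks. Promoters came from RefSeq. Some genes of the likeness lists are not reported here.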

Additional observations from a re-analysis of the deposited data

How the results depend on the processing

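With strain and experiment together as the replicate block, 1 of the 8 genes (Loxl1) was called for diet over both strains in muscle. This count was 0 with the deposited value table (limma adjusted p 0.0503), without the filter on dim probes (0.189), with no replicate block (0.428) and with the replicate block by slide (0.0566), and 0 without each experiment in turn, while Loxl1 stayed between 1.30 and 1.42 log2. The methods' t-test, unadjusted and not suited to 3 pairs, called 1 gene in aorta WT (Emilin1), 1 in muscle WT and 1 in muscle KO (Loxl1 both times), and 0 after Benjamini-Hochberg adjustment. Unadjusted, it called 4.73%, 8.28% and 5.04% of all probes in these strata, in that order. In aorta KO it called 0 of the 8 genes and 6.77% of all probes. Of genes past 1 log2 in every experiment, aorta KO had 1 under quantile normalization (Eln), muscle WT 0 under normexp, and muscle KO 1 (Loxl1) at a threshold of 0.75 log2. Leaving out each experiment gave 0 to 1 in aorta WT (Eln, without experiment 1), 2 to 3 in aorta KO, 1 to 2 in muscle WT and 0 to 1 in muscle KO. For tissue, 6 or 7 genes were called under every alternative, Fbln2 being the one lost, and no direction of a called gene turned. The causes were not tested. Counts over all probes moved more. Probes called for diet over both strains numbered 8 in aorta and 74 in muscle, 55 and 210 with normexp, 41 and 247 with probes above background on every array, 57 and 274 with the replicate block by slide, 50 and 51 with no replicate block, and 0 without any 1 experiment. For tissue 7715 probes were called, 4763 without experiment 1, 3025 without experiment 2, 12630 with no block and 15402 with the replicate block by pool. Spots near background limit Fbn2, which was not tested.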
